A study of Homo sapiens with 12 samples.

Results

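The DNA replication machinery was followed as 44 genes, chosen by symbol from the deposited table of 57773 gene entries, and all 44 had enough counts to be tested. They were grouped into 11 subcomplexes, from origin recognition to chromatin assembly behind the fork. RNA came from PEO1, an established human ovarian carcinoma cell line, transduced with the pLKO.1 vector as control or with shp53, a short hairpin RNA that targets p53, and the study concerns mutant p53 and estrogen receptor alpha. Each line was measured untreated at 0 h and after 48 h with 10 μM fulvestrant, a drug that blocks and degrades the estrogen receptor, which gave 4 groups of 3 libraries. All cells were kept in puromycin, and the treatment protocol combines fulvestrant with 100 pM estradiol (E2). The labels do not say whether untreated cells received estradiol, so drug, time in culture and any estradiol difference cannot be told apart in a comparison of treated with untreated libraries. Separate cultures for the libraries of a group are not stated in the labels, nor whether each line was a clone or a pool. The p-values therefore reflect only the variation among libraries, which may be technical.

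Replication starts with licensing, in which the origin recognition complex (ORC), CDC6 and CDT1 load the MCM2-7 ring onto DNA in G1. In S phase the kinase CDC7 with its activator DBF4 fires the origin, CDC45 and the GINS complex join MCM2-7 to form the active CMG helicase, polymerase alpha-primase lays primers, and polymerases delta and epsilon extend them on the sliding clamp PCNA. Many of these genes are transcribed at the G1/S transition under E2F factors, and their mRNA is known to be higher in cycling than in resting cells. In bulk RNA, fewer cells in S phase and less of an mRNA per cell cannot be told apart.

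The 12 libraries held 21581887 to 28481541 counts. CPM are TMM-scaled counts as a share of the library, and values are given in the order of libraries 1, 2 and 3 throughout. Epithelial markers were present, with EPCAM at 361 to 450 CPM and PAX8 at 71.4 to 135 CPM of the raw library total, and all 9 markers of that list were detected in every library. Of the 6 fibroblast markers COL3A1 and LUM were at 0 counts throughout, COL1A2, DCN and PDGFRB had at most 8 and COL1A1 reached 7.23 CPM. Of the leukocyte markers PTPRC, CD3E and LYZ had at most 15 counts and CD14 reached 6.36 CPM, and of the 3 endothelial markers KDR and VWF had at most 19 counts and CDH5 stood at 4.90 to 9.66 CPM. The 13 protein-coding transcripts of the mitochondrial genome made up 0.152% to 0.262% of counts, and this is the mitochondrial share given below. Libraries also differed in how their genes deviated with transcript GC content: the Spearman rho across genes of this GC trend ran from −0.617 in fulvestrant-treated control-vector library 3 and −0.552 in fulvestrant-treated knockdown library 2 up to 0.558 in fulvestrant-treated control-vector library 1.

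As a set, the replication genes were slightly lower in untreated knockdown than in untreated control-vector libraries, though no gene passed a test of this difference. The medians over the 44 genes only just overlapped (highest knockdown library −0.0477, lowest control-vector library −0.0483), and the shares of counts given below did not. Fulvestrant-treated control-vector libraries were lower, and fulvestrant-treated knockdown libraries were lowest. Relative to the mean of the untreated control-vector libraries, the median over the 44 genes on the log2 scale was 0.07, −0.01 and −0.05 in those libraries, −0.05, −0.11 and −0.11 in untreated knockdown, −0.57, −0.61 and −0.61 in treated control-vector and −1.06, −1.07 and −1.08 in treated knockdown libraries. The treated groups did not overlap with each other or with either untreated group. The 44 genes took 0.441% to 0.448% of all counts in untreated control-vector libraries, 0.409% to 0.417% in untreated knockdown, 0.291% to 0.303% in treated control-vector and 0.201% to 0.212% in treated knockdown libraries.

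**Figure D1:**
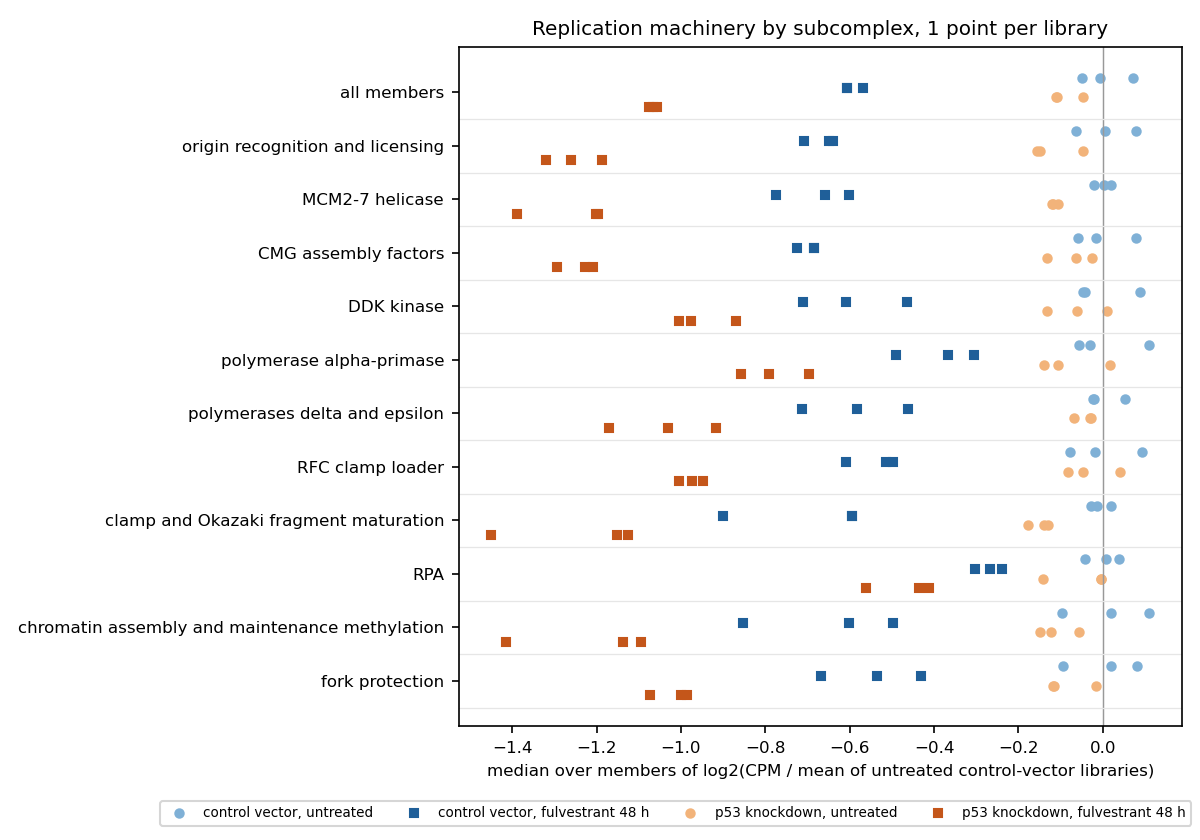
Median over the genes of each subcomplex of log2 CPM relative to the mean of the untreated control-vector libraries (horizontal axis, log2 units), with 1 point per library and colours for the 4 groups. For all 44 genes the treated knockdown libraries lie between −1.08 and −1.06 and the treated control-vector libraries between −0.61 and −0.57; the RPA genes moved least.

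The response to fulvestrant was first read in control-vector cells. Of the 44 genes, 39 fell and 0 rose in edgeR's quasi-likelihood test (adjusted p under 0.05, Benjamini-Hochberg over 15715 tested genes), against 14.3% of all tested genes that fell and 13.4% that rose. Their median log2 fold change was −0.62, where that of all tested genes was −0.01. For 39 of the 44 every treated library was below every untreated one, which held for 19.4% of all tested genes. In knockdown cells the same comparison gave 42 lower and 0 higher, against a background of 19.6% lower and 21.3% higher, with a median of −1.02, and for all 44 the treated libraries lay below the untreated ones (29.7% of all tested genes). No replication gene had a positive log2 fold change in either line. The mitochondrial share of counts was 0.152% to 0.179% untreated and 0.182% to 0.221% treated in control-vector libraries, and 0.167% to 0.212% and 0.213% to 0.262% in knockdown libraries, so it was higher with fulvestrant in both lines. Its part in the result was not tested. Across genes the log2 fold change had a Spearman rho with transcript GC content of −0.151 in control-vector and −0.306 in knockdown cells.

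**Figure D2:**
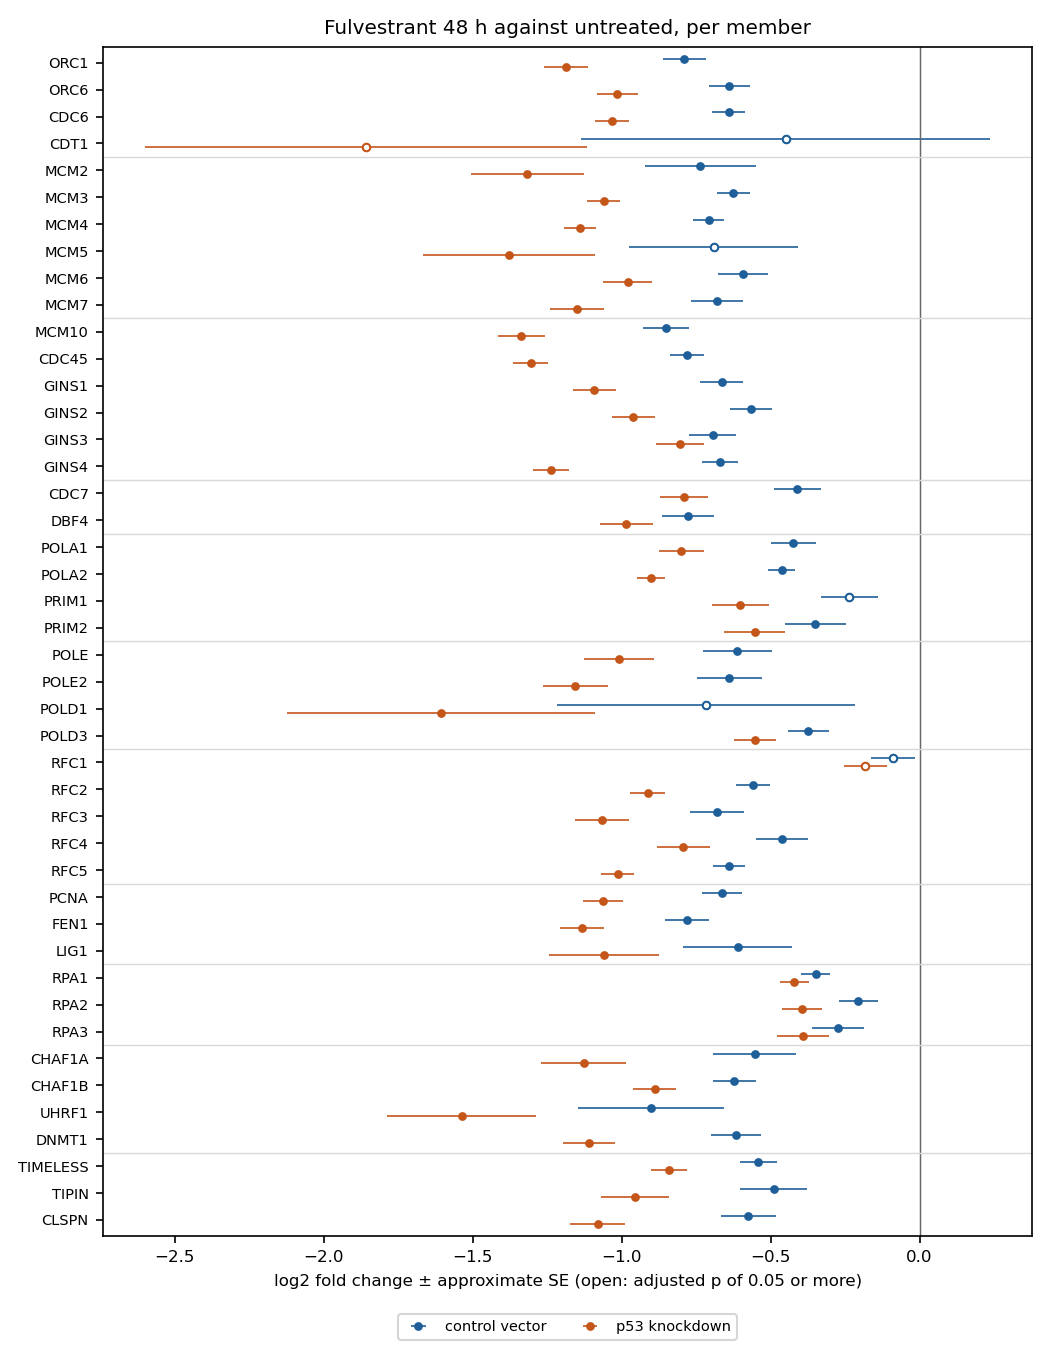
Log2 fold change of fulvestrant against untreated for each of the 44 genes in control-vector (blue) and knockdown (orange) cells, with approximate SE bars and open symbols where the adjusted p was 0.05 or more; grey lines separate the subcomplexes. The knockdown value lies to the left of the control-vector value for all 44 genes, and CDT1 and POLD1 have the widest bars.

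The licensing genes had a median log2 fold change of −0.64 in control-vector and −1.11 in knockdown cells. Of them ORC1, ORC6 and CDC6 fell in both lines and CDT1 did not pass in either. CDC6 is an ATPase that acts with ORC in loading the helicase ring. Its mRNA stood at 129.9, 116 and 116 CPM in untreated and 76.3, 75.7 and 80.2 CPM in treated control-vector libraries. In knockdown libraries it stood at 114, 107 and 107 CPM untreated and 54.9, 52.4 and 53.3 CPM treated. The groups did not overlap, and the log2 fold changes were −0.64 (SE 0.06, edgeR adjusted p = 2.27e-05) and −1.03 (SE 0.06, adjusted p = 4.76e-07). SE values are approximate and were derived from the fold change and the F statistic of its test. ORC6, the smallest ORC subunit, stood at 41.7, 39.7 and 36.6 CPM untreated and 25.5, 25.4 and 24.8 CPM treated in control-vector cells and at 42.9, 37.1 and 38.6 CPM untreated and 19.5, 19.5 and 19.7 CPM treated in knockdown cells. ORC1, the ORC subunit whose level is known to vary over the cell cycle, had log2 fold changes of −0.79 and −1.19 in the 2 lines (edgeR adjusted p = 3.18e-05 and 9.56e-07).

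All 6 MCM2-7 subunits, which form the ring of the replicative helicase, fell in knockdown cells, and 5 of them fell in control-vector cells, with medians of −1.15 and −0.69. MCM4 stood at 408, 372 and 369 CPM in untreated and 237, 231 and 236 CPM in treated control-vector libraries, and at 366, 352 and 350.4 CPM untreated and 163, 154 and 168 CPM treated in knockdown libraries (log2 fold changes −0.71 and −1.14, edgeR adjusted p = 8e-06 and 2.01e-07). MCM6 went from 136, 117 and 118 to 77.4, 78.6 and 89.9 CPM in control-vector libraries and from 122, 125 and 111 to 58.02, 64.3 and 59.7 CPM in knockdown libraries. In both genes the 3 libraries of each treated group lay below all untreated libraries of their line. MCM3 and MCM7 fell by 0.63 and 0.68 in control-vector cells and by 1.06 and 1.15 in knockdown cells on the log2 scale. MCM2 fell by 0.74 and 1.32 (adjusted p = 0.0144 and 0.000362), and in control-vector cells leaving out untreated library 3 ended its call (adjusted p = 0.0507). MCM5, with log2 fold changes of −0.69 and −1.38, passed only in knockdown cells (edgeR adjusted p = 0.102 and 0.0038). The difference between the responses of MCM5 in the 2 lines was −0.69 and did not pass (SE 0.40, adjusted p = 0.804).

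**Figure D3:**
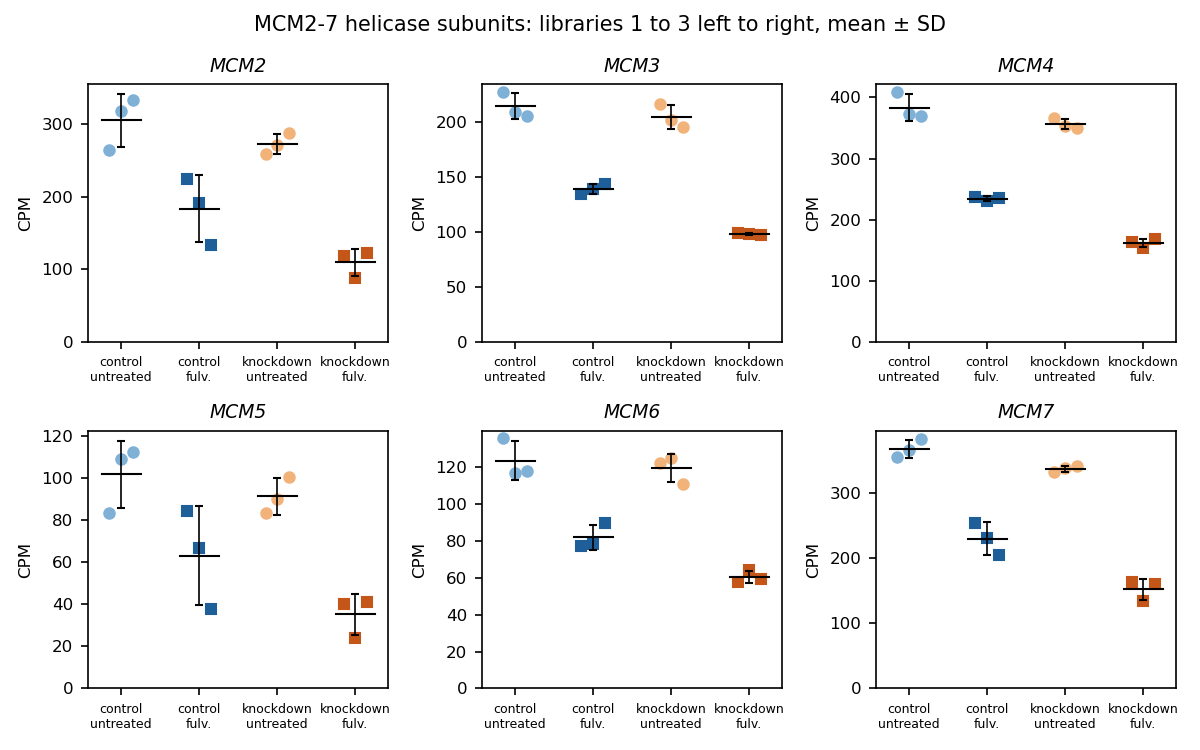
CPM of the 6 MCM2-7 subunits in every library, by group, with the mean (horizontal line) and SD (bar) of 3 libraries and the vertical axis starting at 0. MCM3 and MCM4 have narrow groups with no overlap between treated groups, whereas the treated control-vector libraries of MCM5 spread from 37.7 to 84.4 CPM.

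The promoters of licensing and MCM2-7 genes are shown because most of these genes fell with fulvestrant and they are textbook E2F targets. CDT1 passed in neither line, and MCM5 passed only in knockdown cells. Promoter windows of 300 bases, 250 before to 50 after a gene's start, were taken from RefSeq (GRCh38.p14, a later build than that of the counts) and matched 38 of the 44 genes by symbol. Both strands were searched for the E2F-type words TTTCCCGC, TTTCGCGC, TTTGCCGC and TTTGGCGC, and for the words CCAAT and TTTGAA (the CHR core), none of which contains another. At least 1 E2F-type word was found for 21 of 38 genes (55.3%), against 3.99% of the 27305 genes with a window and 6.5% of the 10454 of these that were tested here. Of 32 other replication genes with a window, 21.9% held an E2F-type word. CCAAT was found for 57.9% of the 38 genes, 59.4% of the other replication genes, 43.0% of tested genes and 39.7% of all genes. TTTGAA was found for 2.63%, 12.5%, 13.8% and 18.2%. The median log2 fold change with fulvestrant in control-vector cells was −0.62 over the 21 genes with an E2F-type word and −0.62 over the 17 without. In knockdown cells these medians were −1.06 and −0.98, and for knockdown against control vector under fulvestrant −0.53 and −0.42. A match describes letters and does not show binding. In the following 6 windows, read 5′ to 3′ on the gene's strand, capitals mark E2F-type words on either strand:
MCM3: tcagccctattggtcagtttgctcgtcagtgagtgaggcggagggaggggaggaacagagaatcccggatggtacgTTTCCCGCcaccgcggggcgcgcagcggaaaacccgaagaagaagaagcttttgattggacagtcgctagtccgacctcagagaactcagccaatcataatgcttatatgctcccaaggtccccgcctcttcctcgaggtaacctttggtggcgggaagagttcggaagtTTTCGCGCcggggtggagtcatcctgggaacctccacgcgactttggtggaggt
CDC6: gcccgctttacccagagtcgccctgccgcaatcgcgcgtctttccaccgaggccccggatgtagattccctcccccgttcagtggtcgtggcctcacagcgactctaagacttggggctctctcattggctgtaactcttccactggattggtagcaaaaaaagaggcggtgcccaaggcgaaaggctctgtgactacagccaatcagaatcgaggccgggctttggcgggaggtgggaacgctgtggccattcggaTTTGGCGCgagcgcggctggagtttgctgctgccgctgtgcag
MCM7: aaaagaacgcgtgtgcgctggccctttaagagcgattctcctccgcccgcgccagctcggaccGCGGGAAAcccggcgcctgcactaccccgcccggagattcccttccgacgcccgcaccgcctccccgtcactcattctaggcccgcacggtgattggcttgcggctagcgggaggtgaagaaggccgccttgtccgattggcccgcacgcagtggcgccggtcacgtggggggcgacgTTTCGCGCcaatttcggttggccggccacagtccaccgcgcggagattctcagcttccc
MCM6: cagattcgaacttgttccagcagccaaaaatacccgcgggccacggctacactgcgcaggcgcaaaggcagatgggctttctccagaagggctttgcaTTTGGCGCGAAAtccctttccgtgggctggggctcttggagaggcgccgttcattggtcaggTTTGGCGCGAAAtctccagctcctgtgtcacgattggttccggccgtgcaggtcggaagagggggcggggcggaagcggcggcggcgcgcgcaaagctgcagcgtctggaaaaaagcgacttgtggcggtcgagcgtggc
MCM2: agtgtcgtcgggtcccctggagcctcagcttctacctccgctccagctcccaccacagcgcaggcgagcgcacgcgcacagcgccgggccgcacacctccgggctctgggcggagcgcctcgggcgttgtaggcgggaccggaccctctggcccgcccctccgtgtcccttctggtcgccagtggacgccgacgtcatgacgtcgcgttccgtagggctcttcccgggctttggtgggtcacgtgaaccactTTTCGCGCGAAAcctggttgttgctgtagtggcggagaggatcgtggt
CDT1: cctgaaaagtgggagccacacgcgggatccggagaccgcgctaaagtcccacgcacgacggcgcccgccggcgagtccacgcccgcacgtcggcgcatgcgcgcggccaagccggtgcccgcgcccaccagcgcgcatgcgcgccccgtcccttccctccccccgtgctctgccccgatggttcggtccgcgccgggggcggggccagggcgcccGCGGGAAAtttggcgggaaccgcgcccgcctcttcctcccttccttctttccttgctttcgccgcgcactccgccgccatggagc
The windows lie at chr6:52284693-52284992 for MCM3 (minus strand), chr17:40287629-40287928 for CDC6 (plus strand), chr7:100101348-100101647 for MCM7 (minus strand), chr2:135876394-135876693 for MCM6 (minus strand), chr3:127598161-127598460 for MCM2 (plus strand) and chr16:88803539-88803838 for CDT1 (plus strand). MCM6 holds 4 words as 2 overlapping pairs, MCM2 a pair of overlapping words, MCM3 and MCM7 each 2 separate words, and CDC6 and CDT1 each 1. ORC1 and ORC6 held none of the E2F-type words in their windows, and MCM4 and MCM5 had no matched window.

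All 6 CMG assembly genes fell with fulvestrant in both lines, with a median log2 fold change of −0.68 in control-vector and −1.16 in knockdown cells. CDC45, the helicase subunit that joins MCM2-7 at firing, stood at 71.3, 69.00 and 68.7 CPM in untreated and 42.2, 41.7 and 37.8 CPM in treated control-vector libraries, and at 67.4, 72.7 and 67.3 CPM untreated and 28.3, 27.1 and 28.6 CPM treated in knockdown libraries. Its log2 fold changes were −0.78 and −1.31 (SE 0.06 and 0.06, edgeR adjusted p = 8.04e-06 and 1.58e-07). The GINS complex joins the ring beside CDC45. Its subunit gene GINS4 went from 55.2, 52.1 and 48.7 to 33.2, 31.8 and 33.1 CPM in control-vector libraries and from 50.1, 49.9 and 47.05 to 21.3, 21.1 and 19.9 CPM in knockdown libraries. GINS3 went from 20.2, 19.4 and 19.5 to 13.5, 11.1 and 11.9 CPM and from 18.6, 16.8 and 17.8 to 9.88, 10.5 and 10.1 CPM. Between the treated groups of the 2 lines the log2 difference was −0.26 for GINS3 (adjusted p = 0.0843) and −0.65 for GINS4 (adjusted p = 0.000213). MCM10, which helps to activate the assembled helicase, had the largest log2 fold change of these 6 in each line, −0.85 and −1.34, and GINS2 had the smallest in control-vector cells at −0.57. Of the kinase pair, the catalytic subunit gene CDC7 fell by 0.41 and 0.79, and the activator gene DBF4 by 0.78 and 0.98 on the log2 scale (edgeR adjusted p from 9.73e-06, DBF4 in knockdown cells, to 0.00324, CDC7 in control-vector cells). DBF4 stood at 39.5, 35.8 and 38.9 CPM untreated and 19.9, 22.4 and 24.3 CPM treated in control-vector cells and at 41.99, 38.9 and 35.5 CPM untreated and 19.02, 20.5 and 19.3 CPM treated in knockdown cells. CDC7 stood at 47.8, 43.97 and 40.3 CPM untreated and 31.3, 32.04 and 36.05 CPM treated in control-vector cells and at 40.3, 39.4 and 39.1 CPM untreated and 22.7, 24.4 and 21.5 CPM treated in knockdown cells. Treated and untreated libraries were apart in both lines for each gene of the pair.

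The polymerase alpha-primase genes had smaller changes, with a median of −0.39 in control-vector cells and −0.70 in knockdown cells. POLA2, the accessory subunit of polymerase alpha, stood at 72.6, 70.2 and 71.8 CPM untreated and 50.7, 52.1 and 52.8 CPM treated in control-vector libraries, and at 69.2, 67.5 and 68.7 CPM untreated and 34.96, 37.1 and 37.98 CPM treated in knockdown libraries (log2 fold changes −0.46 and −0.90, edgeR adjusted p = 5.85e-05 and 3.84e-07). The primase subunit gene PRIM2 went from 20.02, 17.7 and 18.2 to 13.3, 15.1 and 15.5 CPM and from 19.7, 16.2 and 16.04 to 10.98, 12.7 and 11.7 CPM. Its control-vector call ended without untreated library 1 (adjusted p = 0.0836) and without treated library 1 or 2 (adjusted p = 0.104 and 0.0839). PRIM1, the catalytic primase subunit gene, fell in knockdown cells (−0.60, adjusted p = 0.000582) and did not pass in control-vector cells (−0.24, adjusted p = 0.0957), with no call for the difference (adjusted p = 0.524). In control-vector cells PRIM1 passed with GC correction (−0.31, adjusted p = 0.00398) and without treated control-vector library 3 (−0.36, adjusted p = 0.00976). The delta and epsilon polymerase genes had medians of −0.62 and −1.08, and POLE, POLE2 and POLD3 fell in both lines. POLE2, the second subunit of polymerase epsilon, stood at 11.9, 10.3 and 10.7 CPM untreated and 6.55, 6.95 and 7.60 CPM treated in control-vector cells and at 11.7, 12.2 and 9.85 CPM untreated and 5.51, 4.93 and 4.70 CPM treated in knockdown cells. The catalytic subunit gene POLE went from 112, 112 and 112 to 81.5, 78.4 and 59.8 CPM and from 116, 114 and 119.9 to 62.3, 49.00 and 62.4 CPM. The delta subunit gene POLD3 went from 96.6, 86.6 and 86.2 to 64.9, 69.2 and 73.9 CPM and from 83.5, 76.9 and 72.7 to 52.2, 53.97 and 52.9 CPM. No treated library reached the level of an untreated library of its line for these genes.

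RFC is the 5-subunit loader that opens PCNA onto DNA, and 4 of its genes passed in both lines. RFC2, RFC3, RFC4 and RFC5 fell by 0.46 to 0.68 in control-vector cells and by 0.79 to 1.07 in knockdown cells on the log2 scale. RFC1, the large subunit, stood at 127, 117 and 114 CPM in untreated and 103, 112 and 121 CPM in treated control-vector libraries and at 125, 120.2 and 114 CPM untreated and 103, 112 and 101 CPM treated in knockdown libraries. Its control-vector groups overlapped, and its log2 fold changes were −0.09 (edgeR adjusted p = 0.421) and −0.18 (adjusted p = 0.0682). RFC5 stood at 53.8, 51.4 and 48.5 CPM untreated and 32.1, 33.3 and 33.2 CPM treated in control-vector cells and at 49.8, 49.02 and 50.5 CPM untreated and 24.4, 25.5 and 24.04 CPM treated in knockdown cells. After a correction for GC content RFC1 also passed, with log2 fold changes of −0.16 (edgeR adjusted p = 0.028) in control-vector and −0.33 (adjusted p = 0.000129) in knockdown cells. In control-vector cells its value was 0.00 with a minimum of 5 CPM, required in at least 3 of all libraries (adjusted p = 0.973). Without treated control-vector library 3 it was −0.18 (adjusted p = 0.0957).

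PCNA, the sliding clamp, and the nuclease gene FEN1 and ligase gene LIG1, which finish Okazaki fragments, fell in both lines. PCNA stood at 305, 323 and 305 CPM untreated and 206, 206 and 178 CPM treated in control-vector cells and at 282, 282 and 281 CPM untreated and 142, 125 and 137 CPM treated in knockdown cells, with log2 fold changes of −0.66 and −1.06 (edgeR adjusted p = 6.21e-05 and 1.09e-06). FEN1 went from 143, 139 and 139 to 86.3, 83.8 and 75.3 CPM and from 124, 125 and 128 to 57.6, 51.5 and 63.3 CPM. LIG1 had log2 fold changes of −0.61 and −1.06, and its control-vector call ended without untreated control-vector library 2 or 3 (adjusted p = 0.0785 and 0.0964). RPA, the 3-subunit complex that coats single-stranded DNA and also serves repair, had the smallest median change of the 11 subcomplexes, −0.27 in control-vector and −0.39 in knockdown cells. RPA1 stood at 142, 139.5 and 135 CPM untreated and 106, 106 and 115 CPM treated in control-vector cells and at 142, 139 and 132 CPM untreated and 102, 103 and 104 CPM treated in knockdown cells. RPA3 stood at 21.4, 21.9 and 17.8 CPM untreated and 16.4, 16.8 and 17.2 CPM treated in control-vector cells and at 17.9, 18.3 and 16.2 CPM untreated and 12.9, 13.9 and 13.1 CPM treated in knockdown cells. The 3 RPA genes passed in both lines, but in control-vector cells the calls of RPA2 and RPA3 (edgeR adjusted p = 0.038 and 0.0379) were lost in 13 of 22 other settings each, among them 7 and 8 of the 12 that leave out a library (adjusted p up to 0.113 and 0.145).

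The 4 genes acting on chromatin behind the fork fell in both lines, with medians of −0.62 and −1.12. CHAF1A and CHAF1B encode subunits of the histone chaperone CAF-1, UHRF1 recognises hemimethylated DNA, and DNMT1 copies the methylation. CHAF1B stood at 26.8, 25.4 and 29.5 CPM untreated and 18.4, 17.7 and 17.03 CPM treated in control-vector cells and at 25.97, 23.6 and 25.1 CPM untreated and 13.5, 12.9 and 13.9 CPM treated in knockdown cells. DNMT1 stood at 380.0, 402 and 413 CPM untreated and 288, 265 and 226 CPM treated in control-vector cells and at 369.8, 371 and 386 CPM untreated and 180.5, 159 and 182 CPM treated in knockdown cells. For both genes treated and untreated libraries did not overlap in either line. UHRF1 had a log2 fold change of −0.90 in control-vector cells (edgeR adjusted p = 0.0205), and −1.54 in knockdown cells (adjusted p = 0.00082); leaving out untreated control-vector library 2 or 3 ended the control-vector call (adjusted p = 0.0575 and 0.0705). Of the fork protection genes, TIMELESS stood at 171, 164 and 151 CPM untreated and 108, 112 and 113 CPM treated in control-vector cells and at 158, 149 and 141 CPM untreated and 81.7, 80.9 and 87.5 CPM treated in knockdown cells. Its partner gene TIPIN and the checkpoint mediator gene CLSPN had log2 fold changes of −0.49 and −0.57 in control-vector cells and −0.95 and −1.08 in knockdown cells, and all 3 genes fell in both lines. The control-vector call of TIPIN ended without treated control-vector library 1 or 2 (adjusted p = 0.0573 and 0.0701).

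Knockdown against control vector in untreated cells asks whether these genes differ between the lines without the drug. With a single line per construct, an effect of the hairpin cannot be told apart from other differences between the lines, here or under fulvestrant. None of the 44 genes passed in edgeR (0 lower and 0 higher, against 0.566% and 1.02% of all tested genes) or in DESeq2 (0 and 0). Their median log2 fold change was −0.09, that of all tested genes −0.01. The medians of the 11 subcomplexes ran from −0.15 for licensing to −0.04, 38 of the 44 values were negative, and 3 genes, RPA3, CDC6 and POLD3, had an unadjusted p under 0.05, as did 1525 of the 15715 tested genes. Groups did not overlap for 10 genes lower and 1 higher in knockdown, against 7.51% and 8.69% of all tested genes. CDC6 is an example of such a small shift, at 129.9, 116 and 116 against 114, 107 and 107 CPM (log2 fold change −0.14, adjusted p = 0.405).

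With fulvestrant the same comparison had 31 of the 44 genes lower in knockdown cells and 0 higher, against 2.74% of all tested genes lower and 4.28% higher. The median log2 fold change was −0.50, that of all tested genes 0.00, and all 44 values were negative. For 37 genes every treated knockdown library lay below every treated control-vector library, which held for 8.29% of all tested genes. This comparison shares its control-vector and knockdown libraries with the fulvestrant comparisons above. Fitting the 6 treated libraries alone gave 19. Leaving out 1 library at a time the count ranged from 22, without treated knockdown library 1, to 34, without treated control-vector library 3. Over all tested genes 180 and 817 were lower in these fits, against 431 with all libraries. Leaving out both libraries of lowest GC trend, a setting chosen after the data were seen, gave 33. For that setting and the 6-library fit the number of all genes called lower is not given here. In the same comparison the mitochondrial share of counts was 0.182% to 0.221% in control-vector and 0.213% to 0.262% in knockdown libraries, and its part in the result was not tested. Across the 15373 genes with a GC value, the log2 fold change of this comparison had a Spearman rho of −0.411 with transcript GC content, and the GC correction gave 39 of the 44 genes lower while the genes called lower in all went from 431 to 1148.

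**Figure D4:**
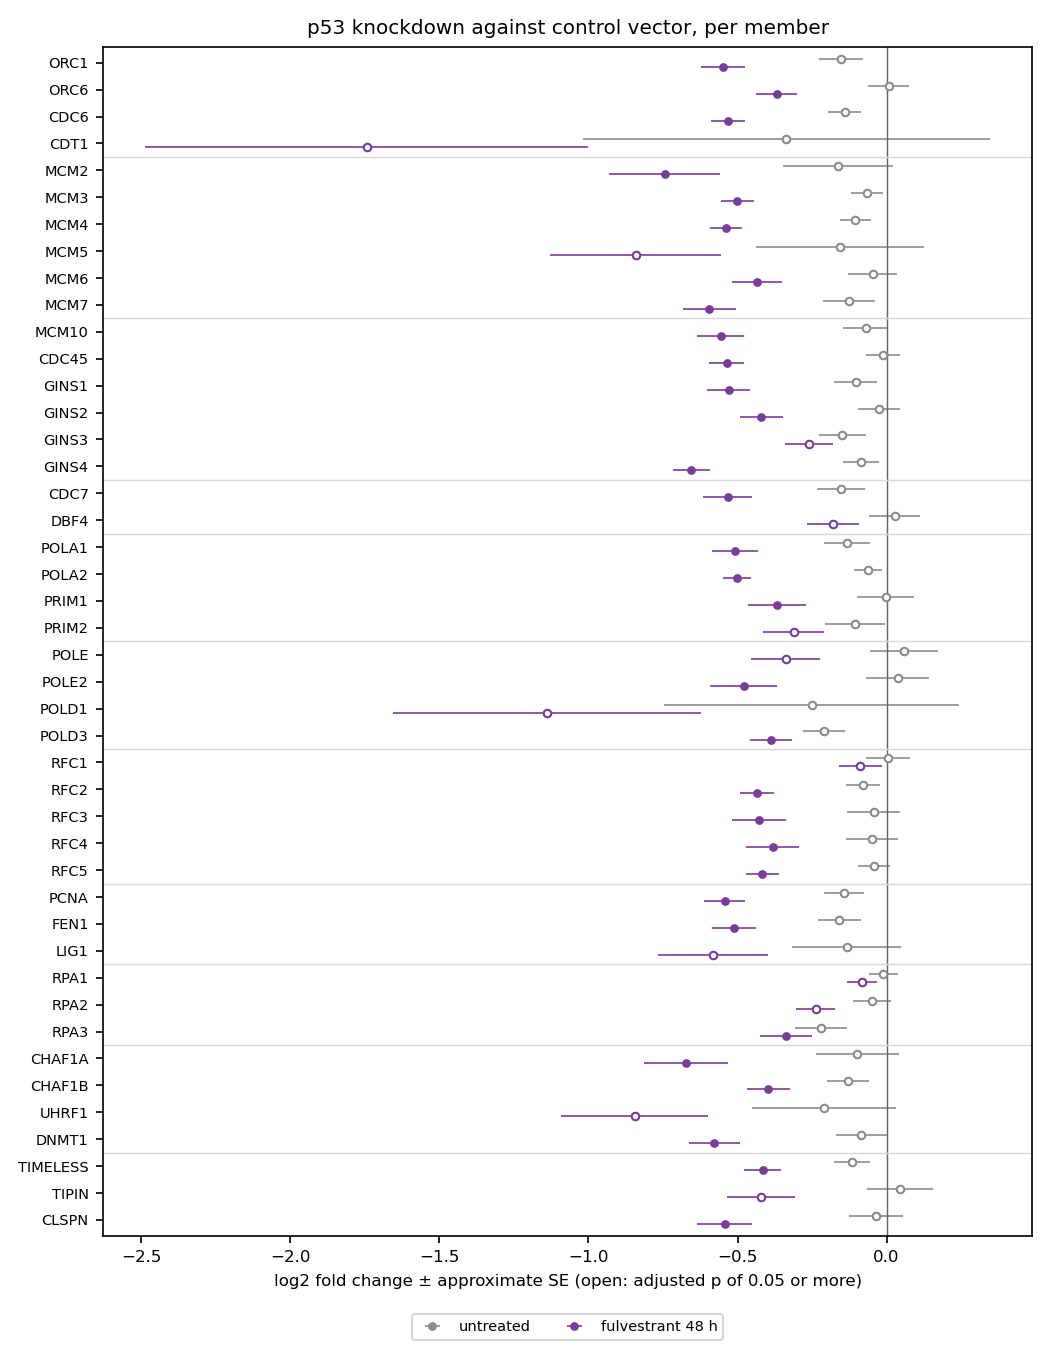
Log2 fold change of p53 knockdown against control vector for each of the 44 genes in untreated (grey) and fulvestrant-treated (purple) cells, with approximate SE bars and open symbols where the adjusted p was 0.05 or more. The untreated values cluster near 0, with a median of −0.09, and the treated values are all negative, with a median of −0.50.

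The genes of smallest p in treated cells were GINS4 and POLA2. In edgeR, GINS4 reached −0.65 on the log2 scale (SE 0.06, adjusted p = 0.000213) and POLA2 −0.50 (SE 0.05, adjusted p = 0.000213), and for both the treated groups listed above did not overlap. MCM4 (−0.54, adjusted p = 0.000269), CDC6 (−0.53, 0.000382), CDC45 (−0.54, 0.000443) and MCM3 (−0.50, 0.000453) followed. By subcomplex, 3 of 4 licensing, 5 of 6 MCM2-7, 5 of 6 CMG assembly, 1 of 2 kinase, 3 of 4 polymerase alpha-primase, 2 of 4 polymerase delta and epsilon, 4 of 5 RFC, 2 of 3 clamp and Okazaki, 1 of 3 RPA, 3 of 4 chromatin and 2 of 3 fork protection genes were lower. The medians ran from −0.63 for the chromatin genes to −0.24 for RPA. PCNA and DNMT1 were lower by 0.54 and 0.58 on the log2 scale (adjusted p = 0.00102 and 0.00279), TIMELESS by 0.42 (adjusted p = 0.00273) and RFC5 by 0.42 (adjusted p = 0.00135). The smallest values were those of RPA1 (−0.08, adjusted p = 0.371), RFC1 (−0.09, 0.507) and DBF4 (−0.18, 0.273). MCM2, PRIM1 and RPA3 passed by a narrow margin (adjusted p = 0.0414, 0.0461 and 0.0447) and lost the call in 13, 17 and 17 of 22 other settings. Leaving out a library ended 9 of the 31 calls. RPA3 was lost without 11 of the 12 libraries in turn (adjusted p up to 0.169), PRIM1 and MCM2 without 10 (up to 0.18 and 0.102), and POLE2 without 4 (up to 0.111), which were treated control-vector library 2 and the treated knockdown libraries. RFC3 and RFC4 were lost without 3 (adjusted p up to 0.117 and 0.155), MCM6 and POLD3 without treated knockdown library 1 or 3 (up to 0.0916 and 0.0651), and CLSPN without treated knockdown library 1 (0.054).

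The difference between the 2 fulvestrant responses, knockdown minus control vector, asks directly whether the lines respond differently. All 44 log2 values were negative, with a median of −0.40 against −0.01 for all tested genes, but 0 genes passed in edgeR in either direction (0.0127% of all tested genes passed lower and 0.0127% higher). At an unadjusted p under 0.05 there were 30 of the 44 genes and 1171 of the 15715 tested. Of 31 genes that DESeq2 called in all, 17 of them lower, 6 were replication genes, all lower: CDC45, GINS4, MCM3, MCM4, PCNA and POLA2. The smallest edgeR adjusted p was 0.0932, for GINS4 (−0.57, SE 0.09) and POLA2 (−0.44, SE 0.07). Where only genes with at least 5 CPM in at least 3 libraries were kept, 13 replication genes passed, among 96 calls over all genes (77 lower). After the GC correction 12 passed, among 71 calls (54 lower). Across genes the log2 difference had a Spearman rho of −0.375 with transcript GC content. Across the 44 genes the 2 responses, which share no library, had a Pearson r of 0.77 and a Spearman rho of 0.775, given as a description. Per gene the smallest differences were those of RPA1 (−0.07), RFC1 (−0.09) and GINS3 (−0.11), and the largest those of CDT1 (−1.41) and POLD1 (−0.89), whose SE of 1.00 and 0.71 were also the largest.

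The spread within groups was far wider for CDT1 and POLD1 than for the rest, and the 6 genes of widest spread are described here. The pooled SD of log2 CPM within groups had a median of 0.0926 over the 44 genes, but was 1.06 for CDT1, 0.72 for POLD1, 0.395 for MCM5, 0.335 for UHRF1 and 0.253 for each of MCM2 and LIG1, and at most 0.193 for any other. CDT1, the loading factor that geminin inhibits, stood at 6.26, 15.8 and 21.5 CPM in untreated and 19.4, 10.5 and 2.00 CPM in treated control-vector libraries, and at 7.32, 11.7 and 15.5 CPM untreated and 3.44, 1.81 and 4.32 CPM treated in knockdown libraries. Its treated control-vector libraries alone covered almost the whole range of the 12. POLD1, the catalytic subunit of polymerase delta, stood at 25.96, 43.2 and 55.3 CPM untreated and 41.1, 25.1 and 9.51 CPM treated and at 27.02, 35.4 and 42.1 CPM untreated and 13.9, 6.05 and 14.5 CPM treated. For all 6 genes the lowest library of every group was the one with the lowest GC trend of that group, which held for 9 of the 44 genes. Transcript GC content was 64.9% for CDT1, 64.7% for POLD1, 60.7% for LIG1, 58.1% for MCM2 and 56.6% for MCM5, and UHRF1 had no value. The median over the 43 genes with a value was 48.1%, and 7 of the 43 had at least 56.6%. Over these 43 genes the pooled SD had a Spearman rho of only 0.0943 with transcript GC content.

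**Figure D5:**
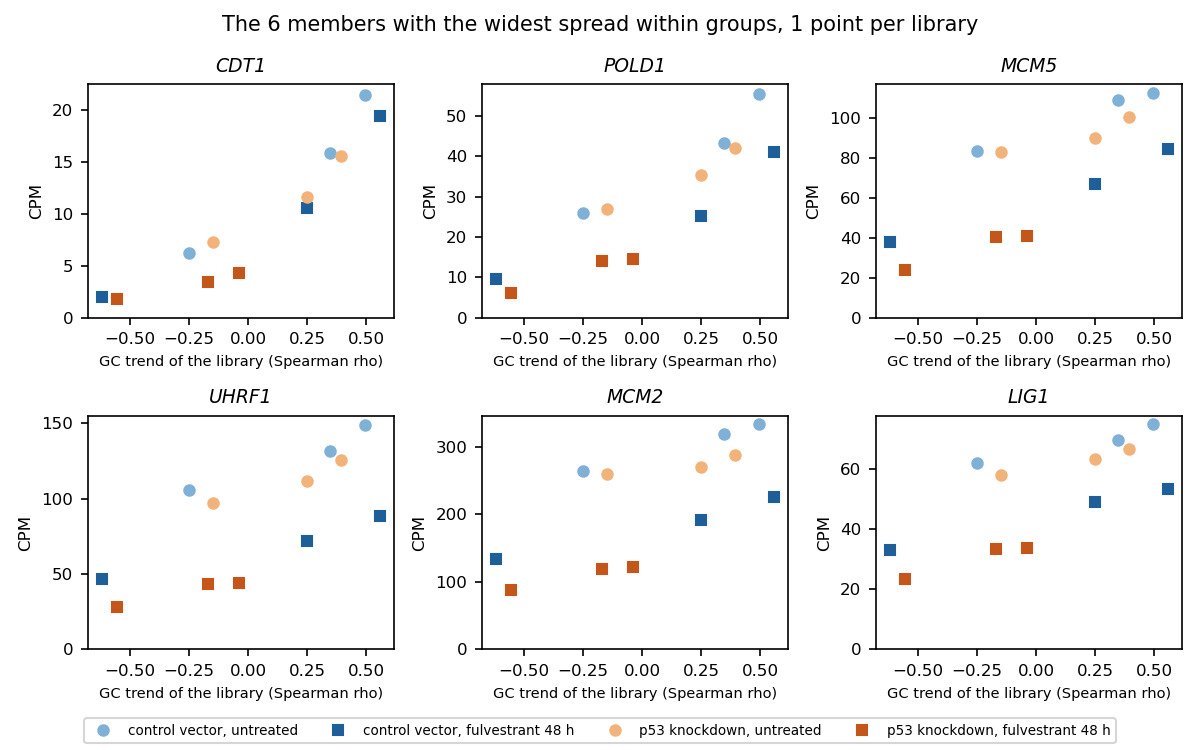
CPM of the 6 genes with the widest spread within groups (vertical axes from 0) against the GC trend of each library, the Spearman rho across genes between a gene's deviation and its transcript GC content; colours give the 4 groups. CDT1 runs from 1.81 to 21.5 CPM along the trend, with treated control-vector library 1 at 19.4 CPM among the untreated libraries of high trend, while in MCM2 and LIG1 the treated libraries stay below untreated libraries of similar trend.

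With GC correction, CDT1 had log2 fold changes with fulvestrant of −0.40 (edgeR adjusted p = 0.503) in control-vector and −1.38 (adjusted p = 0.035) in knockdown cells, in place of −0.45 (adjusted p = 0.691) and −1.86 (adjusted p = 0.07). POLD1 had −0.64 (adjusted p = 0.0251) and −1.17 (adjusted p = 0.000798), in place of −0.72 (adjusted p = 0.338) and −1.61 (adjusted p = 0.0316). The knockdown call of POLD1 ended without untreated knockdown library 2 or 3 and without treated knockdown library 1 or 2 (adjusted p from 0.0531 to 0.0953). Without treated control-vector library 3, calls were gained with fulvestrant in knockdown cells for CDT1 (−1.88, adjusted p = 0.0217) and between the treated lines for CDT1 (−2.22, adjusted p = 0.0412) and MCM5 (−1.09, adjusted p = 0.0179). The control-vector value of POLD1 without that library was −0.37 (adjusted p = 0.59). Leaving out both libraries of lowest GC trend instead, POLD1 had −0.37 (adjusted p = 0.506) in control-vector cells, CDT1 had 0.00 in control-vector cells and −1.59 in knockdown cells (adjusted p = 0.0802), and MCM5 −0.46 (adjusted p = 0.0698) and −1.19 (adjusted p = 0.000936). With GC correction 43 of the 44 genes were lower with fulvestrant in control-vector cells and 44 in knockdown cells, while the genes called lower in all went from 2251 to 3288 and from 3080 to 4301.

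The wider pathway was read from 38 other replication genes, listed by function, all of which were tested. With fulvestrant 21 fell and 0 rose in control-vector cells (median −0.46, against 14.3% of all tested genes lower), and 26 fell and 0 rose in knockdown cells (median −0.66, against 19.6%). In treated knockdown against treated control-vector cells 10 were lower and 0 higher (median −0.28, against 2.74%). Knockdown against control vector in untreated cells gave 0 in either direction in edgeR, with 1 at an unadjusted p under 0.05. GMNN, which encodes the CDT1 inhibitor geminin, stood at 29.8, 28.96 and 29.1 CPM untreated and 18.9, 17.6 and 18.2 CPM treated in control-vector cells and at 26.6, 26.8 and 28.1 CPM untreated and 13.1, 12.98 and 12.2 CPM treated in knockdown cells (log2 fold changes −0.68 and −1.09, edgeR adjusted p = 1.59e-05 and 3.84e-07). TICRR, a firing factor gene, had log2 fold changes of −0.79 and −1.08 (adjusted p = 1.15e-05 and 5.94e-07). NASP, a histone chaperone gene, was lower by 0.42 in treated knockdown cells (adjusted p = 0.00142). The smallest p between the untreated lines was that of POLE4, an accessory subunit gene of polymerase epsilon (−0.17, adjusted p = 0.406). For the difference of responses the smallest were those of GMNN (−0.41, adjusted p = 0.168) and DSCC1, a clamp loader gene (−0.55, adjusted p = 0.192), and none passed. Of the other ORC subunits, in control-vector cells ORC2, ORC3, ORC4 and ORC5 had log2 fold changes of −0.22, −0.19, −0.01 and −0.05, and none passed (adjusted p of 0.104 or more). In knockdown cells ORC2 (−0.35, adjusted p = 0.0101) and ORC5 (−0.43, adjusted p = 0.0269) fell.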

How the data were processed

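RNA-seq libraries gave expected counts per gene, estimated by RSEM 1.3.3 per the submitters' processing notes, which also name Bowtie2, cutadapt, MultiQC and the hg19/GRCh37 build; the sources used here do not give annotation release or strand. The deposited expected counts were rounded to whole numbers; 6 columns of 24 h values that match no sample were not used. edgeR 4.0.16 fitted the 12 libraries with TMM scaling and filterByExpr (15715 genes kept), no covariates, and quasi-likelihood tests of 5 contrasts. Genes with near-identical copies elsewhere may share reads. Transcript GC content came from GENCODE v29 by transcript identifier. The GC correction fitted, in each library, a smooth curve on GC content of each gene's deviation from its mean over the 12 libraries. This curve was used as an offset. It also takes out any GC-linked change that differs between groups, so technical and treatment-linked GC trends cannot be told apart by it. The members and lists were chosen with earlier results of these data known. All members are accounted for. Per subcomplex, values in every library are given for the gene of smallest p with fulvestrant in control-vector cells. They are also given for the genes of smallest p and smallest change for knockdown under fulvestrant. Of the other replication genes, the 2 of smallest p per contrast are named, and only GMNN is given in every library. ORC2 to ORC5 were named outside this rule. CDT1 and POLD1 were added after their values were seen. Printed promoters are licensing and MCM2-7 windows with an E2F-type word, in order of p. Alternatives: other scalings and filters, DESeq2 1.42.0, a replicate block, GC correction, each library left out, and only the 6 libraries compared. The procedure was tested on simulated data. The level of the hairpin's target is not reported here.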

Additional observations from a re-analysis of the deposited data

How the results depend on the processing

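The direction of no call reversed and no replication gene was called higher in any alternative. Knockdown against control vector in untreated cells called 0 of the 44 genes in every alternative. Its median was −0.058, with 30 of the 44 values negative, without untreated control-vector library 1. Without untreated knockdown library 3 it was −0.0714, with 33 negative. Without untreated control-vector library 2 it was −0.0875, with 41 negative. With fulvestrant in control-vector cells the count lower (39) was 36 with upper-quartile scaling or with a minimum of 5 CPM and 43 with GC correction, and 35 to 40 without single libraries; the median was −0.55 with upper-quartile scaling and −0.53 with the 5 CPM minimum. In knockdown cells the count (42) was 41 to 44 throughout, and the median was −0.94 with upper-quartile scaling, −0.98 with the 5 CPM minimum and −1.12 with GC correction, with or without the replicate block. Knockdown against control vector under fulvestrant (31) gave 19 when only its 6 libraries were fitted, 39 with GC correction and 22 to 34 without single libraries; the median was −0.55 in the 6-library fit and with the 5 CPM minimum, and −0.53 to −0.44 without single libraries. The difference of responses (0) gave 13 genes with the 5 CPM minimum, 6 with DESeq2, 12 with GC correction, 4 with GC correction and replicate block, 3 without both libraries of lowest GC trend and 0 to 1 without single libraries, the 1 being without treated control-vector library 3. Its median was −0.44 with the 5 CPM minimum, −0.46 with GC correction with or without the block, and −0.45 to −0.36 without single libraries. All 44 genes stayed in the fit with the 5 CPM minimum, which tested fewer genes in all. For the fit without both libraries of lowest GC trend the calls over all genes are not given here. Of the calls, 18 of 31, 32 of 39 and 41 of 42 held in every alternative. The causes were not tested.

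Replicate numbers in the labels showed no clear pairing of the libraries: 7 of 18 same-numbered pairs correlated above 0.1, and 1 of 12 libraries correlated best with its own number. These correlations were of deviations within groups over all genes, which also carry the GC trend of each library, so they cannot exclude pairing. With the replicate block the counts lower were 24 for knockdown under fulvestrant, 36 and 41 for fulvestrant in control-vector and knockdown cells, and 0 for the difference. Over all tested genes, the calls between knockdown and control vector were 249 in untreated cells and 126 to 487 in the alternatives, 1103 under fulvestrant and 229 in the 6-library fit, 456 without treated control-vector library 2, 466 without treated knockdown library 1 and 2270 without treated control-vector library 3, and 4 for the difference of responses with 0 to 96 in the alternatives. The share of calls that were higher was 60.9% for knockdown under fulvestrant, 39.0% with GC correction and 40.9% with the 5 CPM minimum, 48.4% for fulvestrant in control-vector cells, 61.5% with upper-quartile scaling and 64.8% with the 5 CPM minimum, and 52.1% for fulvestrant in knockdown cells and 62.8% with upper-quartile scaling. With 3 libraries a group, changes of small size are detected only in part.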

Other observations

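Levels between genes were compared per kilobase of transcript (CPM divided by the length of the GENCODE v29 transcript matched to each gene, available for 43 of the 44), as the mean of the untreated control-vector libraries. PCNA stood highest at 231.4 CPM per kb, followed by MCM7 at 124 and MCM4 at 91.6, and CDT1 stood lowest at 4.48. Although the MCM2-7 ring holds its subunits in equal numbers, their mRNA levels per kb differed, with MCM2 at 84.4, MCM3 at 67.5, MCM6 at 33.1 and MCM5 at 28.8. In treated knockdown libraries the levels were MCM7 (51.3 CPM per kb), MCM4 (38.6), MCM3 (30.9), MCM2 (30.2), MCM6 (16.2) and MCM5 (9.95). MCM3 and MCM2 were too close there to be ranked, as MCM2 is among the genes of widest spread within groups (pooled SD 0.253). RFC1, whose groups moved least among the RFC genes, stood at 24.4 CPM per kb untreated in control-vector cells and 21.6 in treated knockdown cells, while RFC4 went from 57.1 to 31.9 and RFC2 from 48.6 to 24.4. A single transcript length per gene was used, so isoforms of other lengths would shift these levels.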
